A study of Moricandia suffruticosa and Brassica napus with 23 samples.

Results

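The genes described here are the rows of a Brassica napus (oilseed rape) expression table whose closest Arabidopsis match is 1 of 7 loci of proline synthesis and breakdown. They make up 39 of the 101040 genes in the table. Proline accumulates in many plants that run short of water and is held to act as a compatible solute and as a store of carbon and nitrogen. It is made from glutamate by Δ1-pyrroline-5-carboxylate synthetase (P5CS), the rate-limiting enzyme, and then by pyrroline-5-carboxylate reductase (P5CR). In mitochondria it is turned back into glutamate by proline dehydrogenase (PRODH) and then by pyrroline-5-carboxylate dehydrogenase (P5CDH), while ornithine aminotransferase (OAT) feeds nitrogen from arginine and ornithine into the same intermediate.

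Polyadenylated RNA was measured in leaves of plants whose sample titles carry the code 29005. Drought plants had water withheld for 3 days, heat plants were held at 40 °C for 3 h, and control plants were not treated. All had grown in soil in a chamber for 35 days, with 16 h of light, a temperature of 25 °C and a humidity of 60%. Each group had 3 libraries, which stand behind every mean and SD given here. The series has 23 samples in all, and the 14 of Moricandia suffruticosa, a wild relative, were not analysed here.

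The libraries held 12173804 to 12934922 reads assigned to genes. Values are FPKM, in which the fragments of a gene are divided by its coding length and by the depth of the library, so that levels can be compared between genes. One read on a coding length of 1 kb was worth 0.0773 to 0.0821 FPKM. Libraries of 1 group correlated across genes at 0.983 to 0.986 (log2 scale), and libraries of different groups at 0.805 to 0.893. Of the leaf marker loci, RCA (Rubisco activase) averaged 21870.1 FPKM in drought, 8288 FPKM in heat and 24731 FPKM in control leaves. CAB1 (a chlorophyll-binding protein) averaged 2041 FPKM in drought, 16391 FPKM in heat and 6444 FPKM in control leaves, so that in heat RCA was lower and CAB1 higher than in control leaves. The rows matched to RBCS1A (a Rubisco small subunit) had group means of 0.770 to 2.76 FPKM. Rows matched to other small-subunit loci were not looked at here. The 3 leaf loci together summed to 23401 to 24361 FPKM in drought, 24332 to 25050 FPKM in heat and 30956 to 31426 FPKM in control libraries. The root markers summed to at most 2.52 FPKM in any library, with MYB36 at 0, and the flower markers to at most 2.04 FPKM. The seed storage marker CRA1 was listed at 0 in all but 1 library, where it stood at 0.0570 FPKM, while SESA1 had no row. Phloem markers (SUC2 and PP2A1) summed to 517 to 557 FPKM in drought, 602 to 622 FPKM in heat and 413 to 446 FPKM in control leaves. Of this pair, SUC2 averaged 167 FPKM in drought, 244 FPKM in heat and 177 FPKM in control leaves. PP2A1 averaged 371, 367 and 252 FPKM in the same order. The higher phloem sum in drought was thus due to PP2A1, while both markers were higher in heat. Guard cell markers (KAT1, FAMA and MYB60) summed to 45.8 to 56.0, 44.5 to 48.9 and 52.1 to 54.5 FPKM in the same order. These markers did not move alike either. KAT1 averaged 4.15 FPKM in drought, 8.40 FPKM in heat and 6.47 FPKM in control leaves. FAMA was lower in heat than in control leaves (19.3 against 28.3 FPKM) and overlapped with control in drought. MYB60 overlapped with control in both treatments. The part of these shifts in the results that follow was not tested. In RNA of whole leaves, fewer cells of a type and less RNA per cell cannot be told apart.

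Oilseed rape carries the A and C genomes of its parents, and the name of a gene model gives the genome it was placed in (BnaA or BnaC). Each Arabidopsis locus therefore has several copies. Of the 39 rows, 19 reached 1 FPKM in at least 3 libraries and were tested, 11 were lower and 9 were listed at 0 in all 9 libraries. No untested row exceeded 1.91 FPKM in any library. P5CS1 had 6 rows (4 tested), P5CS2 had 4 (4 tested), P5CR had 12 (3 tested), PRODH1 had 5 (2 tested), PRODH2 had 2 (2 tested), P5CDH had 6 (2 tested) and OAT had 4 (2 tested). The tested copies were 81.1% to 96.5% identical to their Arabidopsis match in protein sequence. Reads may have been split between near-identical copies, so the sum over all rows of a locus is given first and the copies after it.

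The loci are P5CS1 (AT2G39800), P5CS2 (AT3G55610), P5CR (AT5G14800), PRODH1 (AT3G30775), PRODH2 (AT5G38710), P5CDH (AT5G62530) and OAT (AT5G46180). In summed FPKM of drought leaves, the synthesis gene P5CS1 was the highest of the 7 loci and the proline dehydrogenases were the lowest. In drought leaves the order was P5CS1, P5CS2, OAT, P5CR, P5CDH, PRODH1 and PRODH2, with means of 248, 110.0, 92.1, 82.4, 25.0, 6.42 and 1.09 FPKM, and no neighbours in that order overlapped between libraries. In heat leaves P5CR (78.1 FPKM) and P5CS2 (77.1 FPKM) led and overlapped, followed by OAT (52.1 FPKM), P5CS1 (42.1 FPKM), P5CDH (29.0 FPKM), PRODH1 (4.06 FPKM) and PRODH2 (1.22 FPKM). In control leaves P5CS2 (72.7 FPKM) and P5CR (69.6 FPKM) led and overlapped, followed by OAT (44.1 FPKM), P5CS1 (36.1 FPKM), P5CDH (20.3 FPKM), PRODH1 (14.2 FPKM) and PRODH2 (10.6 FPKM).

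**Figure D1:**
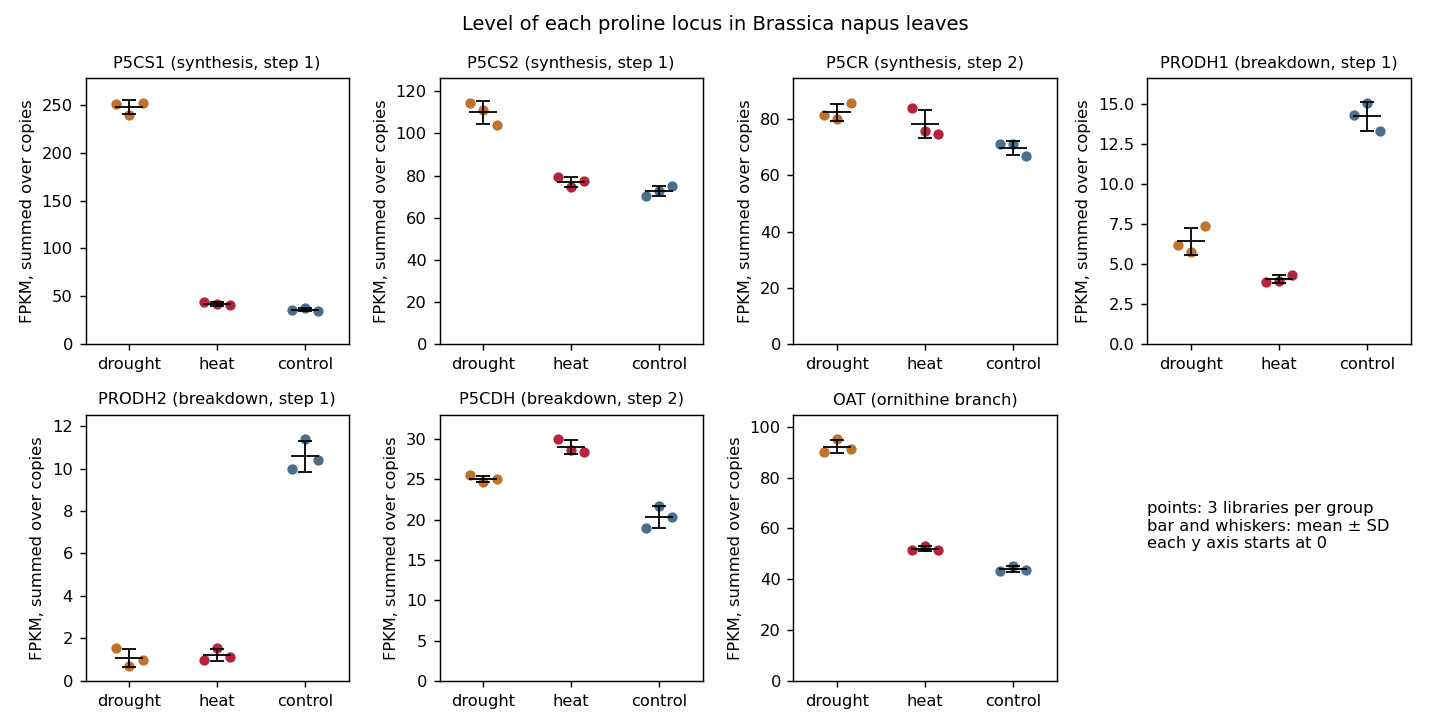
Summed FPKM of each locus (vertical axes, linear, starting at 0) in drought, heat and control leaves, with 1 point per library and the mean ± SD as bar and whiskers (n = 3 each). P5CS1 stands at 239.6 to 252 FPKM in drought and below 45 FPKM in heat and control libraries, and both PRODH loci are lower in drought and heat than in control libraries.

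Drought against control asked how leaves of plants short of water differ from untreated ones. A locus or copy was called when limma's adjusted p was under 0.05 and its log2 change was at least 1 in size. Changes are on the scale of log2(FPKM + 1), where those of genes with few reads come out too small. P5CS1 and OAT were called higher and both proline dehydrogenases lower, while P5CS2, P5CR and P5CDH did not reach the fold threshold. That makes 2 of 7 loci higher, where 5.08% of all 16186 tested loci were, and 2 of 7 lower, where 7.31% were. The median change of the 7 loci was 0.29, beside -0.05 over all loci. Groups are also often apart without a call: drought libraries lay wholly above control libraries at 27.5% of loci and 23.3% of genes, and wholly below at 35.9% and 31.4%. Whether libraries of a group stem from different plants is not stated, and the labels speak of 1 replicate in describing the drought treatment. P-values therefore reflect only how far these libraries differ, which may be technical.

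P5CS1, the stress-responsive P5CS gene of Arabidopsis, summed to 251, 239.6 and 252 FPKM in drought leaves, against 35.8, 38.1 and 34.5 FPKM in control leaves. Every drought library lay far above every control library. The ratio of the means was 6.85, and the log2 change was 2.74 ± 0.05 (SE, adjusted p = 1.6e-13). P5CS2, the second synthetase gene, known in Arabidopsis as the housekeeping one, averaged 110.0 ± 5.36 FPKM in drought leaves and 72.7 ± 2.53 FPKM in control leaves. Its groups did not overlap, but its log2 change of 0.59 ± 0.05 (adjusted p = 3.54e-07) lay below the fold threshold. P5CS1 held 69.2% ± 1.35 of the P5CS1 and P5CS2 total in drought leaves, against 33.2% ± 1.56 in control leaves. The last step of synthesis, P5CR, averaged 82.4 ± 3.05 FPKM in drought leaves and 69.6 ± 2.52 FPKM in control leaves, a log2 change of 0.24 ± 0.05 (adjusted p = 0.00213) that was not called.

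PRODH1, the main proline dehydrogenase of Arabidopsis (also named ERD5), summed to 6.17, 5.73 and 7.37 FPKM in drought leaves, against 14.3, 15.1 and 13.3 FPKM in control leaves. The groups were well apart, with a ratio of means of 0.451. Its log2 change of -1.04 ± 0.11 (adjusted p = 2.49e-06) was just past the threshold, and it was not called with TMM factors (-0.98), with quantile normalization (-0.92) or without drought replicate 2 (-0.97). PRODH2, the second dehydrogenase gene, summed to 1.57, 0.724 and 0.971 FPKM in drought leaves, against 9.96, 11.4 and 10.4 FPKM in control leaves. All drought libraries were far below the controls, with a ratio of means of 0.103, and the log2 change was -2.49 ± 0.16 (adjusted p = 3.03e-08). The next step of breakdown, P5CDH, was not called. It averaged 25.0 ± 0.396 FPKM in drought leaves and 20.3 ± 1.35 FPKM in control leaves, a log2 change of 0.29 ± 0.06 (adjusted p = 0.00185). OAT summed to 90.1, 95.1 and 91.2 FPKM in drought leaves, against 43.3, 45.4 and 43.7 FPKM in control leaves. Its drought libraries all stood at about the same height above the controls, with a ratio of means of 2.09 and a log2 change of 1.05 ± 0.05 (adjusted p = 5.23e-10).

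Among single copies in drought, 4 of the 19 tested were called higher, where 5.12% of all 44260 tested genes were, and 3 of 19 lower, where 6.87% were. The copies called higher were a pair of P5CS1 copies, 1 P5CS2 copy and 1 OAT copy, and those called lower were 1 PRODH1 copy and both PRODH2 copies. The 3 called lower (BnaC02g38230D, BnaAnng37880D and BnaC04g31100D) reached 1 FPKM in all control libraries but in at most 1 drought library and no heat library. They passed the filter through their control level and so had to differ.

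The P5CS1 copy BnaA05g05760D had 169, 159.6 and 169 FPKM in drought leaves, against 19.5, 20.9 and 18.1 FPKM in control leaves. The C genome copy BnaC04g05620D had 75.2, 73.6 and 76.4 FPKM in drought leaves, against 11.5, 11.5 and 10.9 FPKM in control leaves. Both stood far above their controls in every drought library, with log2 changes of 3.03 ± 0.07 (adjusted p = 1.87e-11) and 2.63 ± 0.06 (adjusted p = 3.98e-11). Together they carried almost the whole locus in drought leaves, with BnaA05g05760D at 67.0% ± 0.423 and BnaC04g05620D at 30.3% ± 0.350 of the sum, against 54.0% ± 1.27 and 31.3% ± 0.946 in control leaves. The other tested copies were low. BnaA03g18760D averaged 3.29 ± 0.141 FPKM in drought leaves and 1.69 ± 0.277 FPKM in control leaves (log2 change 0.67 ± 0.13), and BnaC03g72600D averaged 2.64 ± 0.218 FPKM in drought leaves and 3.32 ± 0.475 FPKM in control leaves (-0.24 ± 0.14). Neither was called.

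The P5CS2 copies did not move alike in drought. BnaC08g26550D had 69.2, 67.5 and 61.9 FPKM in drought leaves, against 29.0, 28.5 and 31.9 FPKM in control leaves, and was called higher (log2 change 1.13 ± 0.07, adjusted p = 1.66e-07). BnaA09g35230D had 27.1, 25.6 and 26.0 FPKM in drought leaves, against 14.6, 15.1 and 14.9 FPKM in control leaves. Its drought libraries too lay above all controls, but the change of 0.78 ± 0.08 was below the threshold. BnaC04g55570D had 10.8, 10.3 and 9.58 FPKM in drought leaves, against 14.6, 16.3 and 17.4 FPKM in control leaves (-0.61 ± 0.08). BnaA04g03460D had 7.48, 7.87 and 6.66 FPKM in drought leaves, against 11.9, 12.7 and 11.1 FPKM in control leaves (-0.63 ± 0.09). These last copies were lower in every drought library than in any control library, though not by enough to be called.

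**Figure D2:**
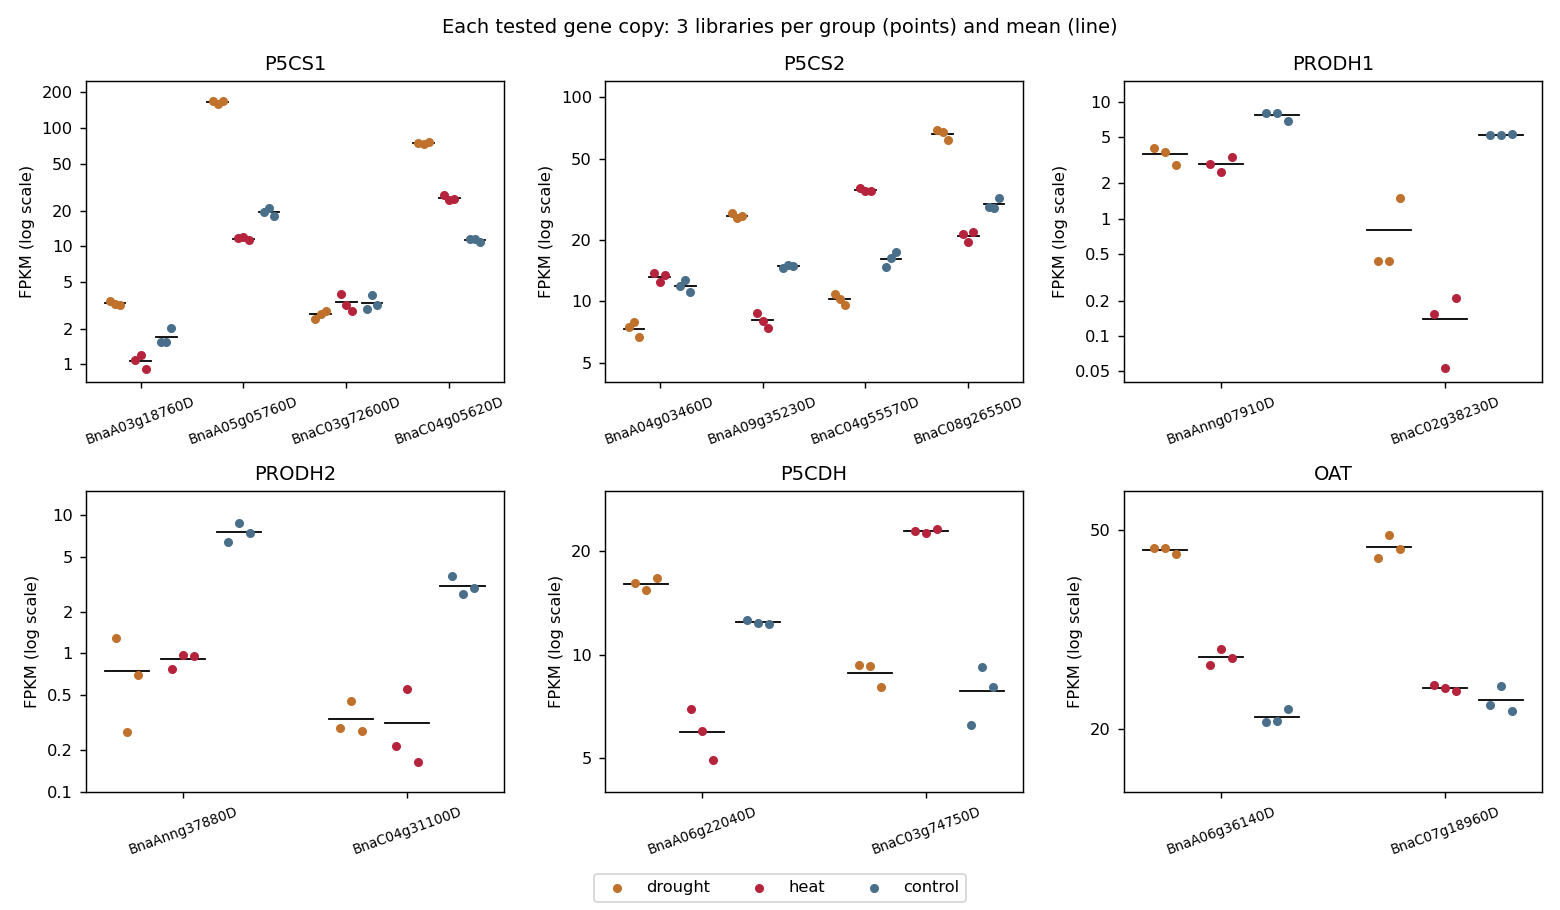
FPKM of the tested copies of P5CS1, P5CS2, PRODH1, PRODH2, P5CDH and OAT (vertical axes, logarithmic), with 1 point per library and a line at the mean of each group of 3. BnaA05g05760D of P5CS1 stands lower in heat than in control libraries while BnaC04g05620D stands higher, and the P5CDH copies change places in heat.

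In control leaves, PRODH1 transcripts came mainly from BnaAnng07910D (53.6% ± 2.10 of the sum) and BnaC02g38230D (36.7% ± 2.90). These copies held 56.4% ± 15.1 and 11.7% ± 7.64 in drought leaves, and 72.4% ± 8.04 and 3.38% ± 1.81 in heat leaves. BnaAnng07910D had 4.01, 3.74 and 2.88 FPKM in drought leaves, against 8.0, 8.03 and 6.88 FPKM in control leaves, a log2 change of -0.93 ± 0.13 that was not called. It was called with a pseudocount of 0.1 (-1.10), with voom (-1.11) and without drought replicate 1 (-1.01). BnaC02g38230D had 0.439, 0.433 and 1.52 FPKM in drought leaves, against 5.16, 5.16 and 5.30 FPKM in control leaves. Drought replicate 3 stood above the other drought libraries but still far below all controls, and the log2 change was -1.84 ± 0.20 (adjusted p = 2.04e-05). In reads, this copy had 45 over the drought libraries and 298 over the control libraries, a ratio of 0.155 after scaling for depth, with a 95% exact binomial interval of 0.111 to 0.212 that covers counting error only. The 3 untested PRODH1 rows, BnaA06g39660D, BnaA09g02760D and BnaC07g26120D, averaged 0.597, 0.680 and 0.811 FPKM in drought leaves, against 0.477, 0.140 and 0.767 FPKM in control leaves, so that they made up more of the low drought sum than of the control sum.

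Of the PRODH2 copies, BnaAnng37880D had 1.28, 0.271 and 0.698 FPKM in drought leaves, against 6.32, 8.70 and 7.45 FPKM in control leaves. BnaC04g31100D had 0.287, 0.453 and 0.273 FPKM in drought leaves, against 3.63, 2.67 and 2.97 FPKM in control leaves. Both were low in all drought libraries, with log2 changes of -2.31 ± 0.20 (adjusted p = 2.66e-06) and -1.61 ± 0.16 (adjusted p = 7.73e-06). The pseudocount holds these values up: the ratio of reads was 0.0997 for BnaAnng37880D (0.0633 to 0.151) and 0.109 for BnaC04g31100D (0.0632 to 0.178).

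Both OAT copies stood at about the same height. BnaA06g36140D had 46.0, 46.1 and 44.9 FPKM in drought leaves, against 20.7, 20.8 and 21.9 FPKM in control leaves, and was called higher (1.08 ± 0.06, adjusted p = 4.53e-08). BnaC07g18960D had 44.0, 48.9 and 45.9 FPKM in drought leaves, against 22.4, 24.4 and 21.8 FPKM in control leaves. Its change of 0.99 ± 0.07 fell just short of the threshold and passed it with TMM factors (1.08), a pseudocount of 0.1 (1.02), voom (1.02), without drought replicate 1 (1.02) and without control replicate 2 (1.03). The copies of P5CR and P5CDH were not called in drought. BnaC09g42740D, the main P5CR copy, averaged 60.4 ± 1.36 FPKM in drought leaves and 50.8 ± 1.69 FPKM in control leaves. BnaA10g19050D averaged 20.1 ± 1.78 FPKM in drought leaves and 15.7 ± 0.583 FPKM in control leaves. The low copy BnaA03g05080D averaged 1.19 ± 0.0277 FPKM in drought leaves and 1.29 ± 0.292 FPKM in control leaves. For P5CDH, BnaA06g22040D averaged 16.1 ± 0.618 FPKM in drought leaves and 12.4 ± 0.160 FPKM in control leaves (0.35 ± 0.11), and BnaC03g74750D averaged 8.88 ± 0.70 FPKM in drought leaves and 7.86 ± 1.5 FPKM in control leaves (0.17 ± 0.12).

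Heat against control asked the same of leaves held at 40 °C, with the same control libraries as the drought comparison. Both proline dehydrogenase loci were lower, and no locus was called higher. That makes 0 of 7 loci higher, where 14.5% of all tested loci were, and 2 of 7 lower, where 10.4% were. At an unadjusted p under 0.05, limma put 4 of the 7 loci higher, where 47.5% of all loci were. With voom, at the adjusted p and fold thresholds of the main fit, 0 were called higher as well. The median change of the 7 loci was 0.16, beside 0.19 over all loci. Over all genes the median change in heat was 0.16, and 0.01 with TMM factors, so that small heat values are read against this shift. Heat libraries lay wholly above control libraries at 47.9% of loci and 42.1% of genes, and wholly below at 30.7% and 29.2%.

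PRODH1 summed to 3.89, 3.96 and 4.35 FPKM in heat leaves, against 14.3, 15.1 and 13.3 FPKM in control leaves. PRODH2 summed to 0.992, 1.53 and 1.12 FPKM in heat leaves, against 9.96, 11.4 and 10.4 FPKM in control leaves. Every heat library lay below every control library at both loci, with log2 changes of -1.59 ± 0.11 (adjusted p = 2.29e-08) and -2.39 ± 0.16 (adjusted p = 2.57e-08), or ratios of means of 0.286 and 0.115.

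None of the synthesis loci was called in heat. P5CS1 summed to 44.3, 41.5 and 40.5 FPKM in heat leaves, against 35.8, 38.1 and 34.5 FPKM in control leaves (log2 change 0.22 ± 0.05, adjusted p = 0.00214, not called). P5CS2 averaged 77.1 ± 2.45 FPKM in heat leaves and 72.7 ± 2.53 FPKM in control leaves (0.08 ± 0.05, adjusted p = 0.135). P5CR averaged 78.1 ± 5.07 FPKM in heat leaves and 69.6 ± 2.52 FPKM in control leaves (0.16 ± 0.05). With TMM factors the values of P5CS1, P5CS2 and P5CR were 0.03, -0.10 and -0.03, so the direction of P5CS2 and P5CR depends on the scaling. P5CS1 kept its direction in every setting, with values of 0.03 to 0.25. P5CDH averaged 29.0 ± 0.868 FPKM in heat leaves and 20.3 ± 1.35 FPKM in control leaves (0.49 ± 0.06, adjusted p = 1.56e-05), and OAT averaged 52.1 ± 0.863 FPKM in heat leaves and 44.1 ± 1.08 FPKM in control leaves (0.23 ± 0.05). Neither reached the fold threshold.

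Beneath these sums, copies of 1 locus did not move alike in heat. Of the 19 tested copies, 3 were called higher, where 14.4% of all genes were, and 4 lower, where 11.2% were. The 3 higher were C genome copies of P5CS1, P5CS2 and P5CDH, and the 4 lower were the tested copies of PRODH1 and PRODH2. Of those lower, BnaC02g38230D of PRODH1 and both PRODH2 copies reached 1 FPKM in no heat library. They passed the filter through their control level and so had to differ, which leaves BnaAnng07910D as the only lower call free of this limit.

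For P5CS1, BnaC04g05620D had 27.2, 24.7 and 24.9 FPKM in heat leaves, against 11.5, 11.5 and 10.9 FPKM in control leaves, and was called higher (log2 change 1.11 ± 0.06, adjusted p = 3.39e-08). BnaA05g05760D had 11.6, 12 and 11.2 FPKM in heat leaves, against 19.5, 20.9 and 18.1 FPKM in control leaves (-0.70 ± 0.07, adjusted p = 2.42e-06, not called). The order of these copies was thus turned round: BnaC04g05620D held 60.8% ± 1.18 of the locus in heat leaves, against 31.3% ± 0.946 in control leaves, and BnaA05g05760D held 27.5% ± 1.32 in heat leaves, against 54.0% ± 1.27 in control leaves. The low copies were not called: BnaA03g18760D averaged 1.06 ± 0.140 FPKM in heat leaves and 1.69 ± 0.277 FPKM in control leaves, and BnaC03g72600D averaged 3.33 ± 0.572 FPKM in heat leaves and 3.32 ± 0.475 FPKM in control leaves.

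For P5CS2, BnaC04g55570D had 35.7, 34.6 and 34.6 FPKM in heat leaves, against 14.6, 16.3 and 17.4 FPKM in control leaves, and was called higher (1.08 ± 0.08, adjusted p = 3.81e-07). With TMM factors it and BnaC04g05620D of P5CS1 were no longer called (0.89 and 0.93). BnaA09g35230D averaged 8.07 ± 0.684 FPKM in heat leaves and 14.9 ± 0.238 FPKM in control leaves (-0.81 ± 0.08), and BnaC08g26550D averaged 20.9 ± 1.17 FPKM in heat leaves and 29.8 ± 1.81 FPKM in control leaves (-0.49 ± 0.07). Neither was called, though their heat libraries all lay below their controls. BnaA04g03460D averaged 13.2 ± 0.701 FPKM in heat leaves and 11.9 ± 0.796 FPKM in control leaves. The leading copy of this locus was therefore BnaC04g55570D in heat leaves (45.4% ± 0.865 of the sum, against 22.1% ± 1.16 in control leaves), while BnaC08g26550D led in drought leaves (60.2% ± 0.648) and in control leaves (41.0% ± 1.59).

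For P5CDH, BnaC03g74750D had 22.9, 22.5 and 23.1 FPKM in heat leaves, against 6.27, 9.24 and 8.07 FPKM in control leaves, and was called higher (1.44 ± 0.12, adjusted p = 9.05e-07). BnaA06g22040D had 6.96, 6.01 and 4.95 FPKM in heat leaves, against 12.6, 12.4 and 12.3 FPKM in control leaves. Its change of -0.96 ± 0.11 (adjusted p = 1.02e-05) fell just short of the threshold and passed it with TMM factors (-1.12), quantile normalization (-1.10), a pseudocount of 0.1 (-1.06), voom (-1.07) and without heat replicate 1 (-1.06). The C genome copy made up 78.9% ± 2.64 of the locus in heat leaves, against 38.5% ± 4.92 in control leaves.

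The PRODH copies were low in heat as in drought. BnaAnng07910D of PRODH1 had 2.94, 2.5 and 3.40 FPKM in heat leaves, against 8.0, 8.03 and 6.88 FPKM in control leaves (log2 change -1.13 ± 0.13, adjusted p = 1.93e-05). BnaC02g38230D had 0.155, 0.0533 and 0.209 FPKM in heat leaves, against 5.16, 5.16 and 5.30 FPKM in control leaves (-2.45 ± 0.20, adjusted p = 1e-06). The BnaC02g38230D value rests on 8 reads over the heat libraries (1 to 4 each) against 298 over the control libraries, a ratio of 0.0268 with an interval of 0.0115 to 0.0535. BnaAnng37880D of PRODH2 averaged 0.904 ± 0.112 FPKM in heat leaves and 7.49 ± 1.19 FPKM in control leaves (-2.15 ± 0.20), and BnaC04g31100D averaged 0.312 ± 0.214 FPKM in heat leaves and 3.09 ± 0.492 FPKM in control leaves (-1.65 ± 0.16). Both were called lower. In reads, the ratio of heat to control was 0.120 for BnaAnng37880D (0.0802 to 0.175) and 0.1005 for BnaC04g31100D (0.0572 to 0.166). The log2 change of BnaC04g31100D was -3.06 with a pseudocount of 0.1 and -3.37 with voom. The OAT and P5CR copies were not called: BnaA06g36140D of OAT averaged 27.9 ± 1.02 FPKM in heat leaves and 21.1 ± 0.686 FPKM in control leaves (0.38 ± 0.06), BnaC07g18960D averaged 24.2 ± 0.317 FPKM in heat leaves and 22.8 ± 1.36 FPKM in control leaves (0.08 ± 0.07), and BnaC09g42740D of P5CR averaged 58.4 ± 1.81 FPKM in heat leaves and 50.8 ± 1.69 FPKM in control leaves (0.20 ± 0.05). BnaA10g19050D of P5CR averaged 18.0 ± 3.07 FPKM in heat leaves and 15.7 ± 0.583 FPKM in control leaves, and BnaA03g05080D averaged 0.817 ± 0.233 FPKM in heat leaves and 1.29 ± 0.292 FPKM in control leaves.

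**Figure D3:**
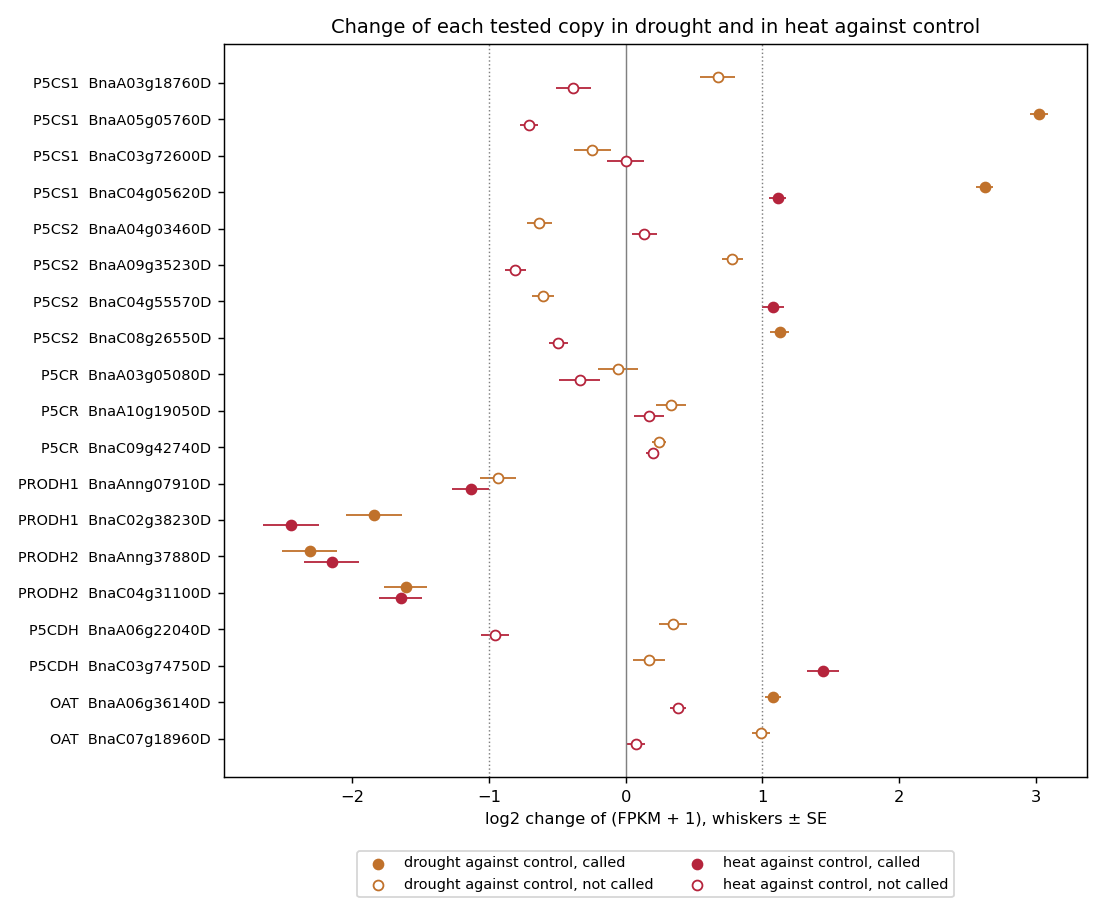
Log2 change of (FPKM + 1) of each tested copy against control (horizontal axis) in drought and in heat, with whiskers of ± 1 SE, filled points for called copies and dotted lines at a change of 1 in size. The P5CS1 copies BnaA05g05760D and BnaC04g05620D lie at 3.03 and 2.63 in drought, and at -0.70 and 1.11 in heat.

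Whether a copy departed from the rest of its locus was tested directly, as the change of the copy minus that of the other tested copies of the same locus. Over all 39930 copies with such a partner, 4.0% were called higher and 4.0% lower in drought, and 9.56% higher and 9.38% lower in heat. Of the 19 proline copies, 1 was called higher and 4 lower in drought, and 4 higher and 4 lower in heat. The heat calls include the PRODH1 pair, of which BnaC02g38230D passed the filter through its control level. In loci with only 2 tested copies the values of both are mirror images and count as 1 fact.

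The copies called in drought were of the P5CS loci. The lowly expressed P5CS1 copies BnaC03g72600D (difference -3.11 ± 0.12, adjusted p = 4.09e-07) and BnaA03g18760D (-2.13 ± 0.13, adjusted p = 6.61e-06) lagged behind the rest of P5CS1. Among P5CS2 copies, BnaC04g55570D (-1.41 ± 0.09) and BnaA04g03460D (-1.38 ± 0.10) lagged and BnaC08g26550D (1.09 ± 0.09, adjusted p = 4.08e-05) led. The main P5CS1 copies BnaA05g05760D (0.78 ± 0.09) and BnaC04g05620D (-0.13 ± 0.09) were not called. The PRODH1 copies differed by 0.91, which was not called, and by 1.68 with a pseudocount of 0.1 and 1.29 without drought replicate 3, both called.

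In heat the departures were between A and C genome copies at P5CDH, where BnaC03g74750D exceeded BnaA06g22040D in change by 2.40 ± 0.17 (adjusted p = 5.29e-06), and at P5CS1, where BnaC04g05620D stood at 1.70 ± 0.09 (adjusted p = 9.44e-07) and BnaA05g05760D at -1.54 ± 0.09 (adjusted p = 2.32e-06). At P5CS2, BnaC04g55570D stood at 1.49 ± 0.09 (adjusted p = 1.61e-06) and BnaA09g35230D at -1.06 ± 0.09 (adjusted p = 2.06e-05, and -0.998 and not called without heat replicate 3). BnaC08g26550D, also of the C genome, stood at -0.88 ± 0.09 and was not called, so that C genome copies did not all move one way. The PRODH1 copies BnaAnng07910D and BnaC02g38230D, which are also among the heat calls, differed by 1.32 ± 0.27, and by 3.18 with a pseudocount of 0.1. BnaC02g38230D passed the filter through its control level, with 1 drought library and no heat library at 1 FPKM or more. The calls of this pair in heat, and in drought under other settings, are therefore a description and are not read as a test. The copies of PRODH2, P5CR and OAT, and the remaining P5CS copies, were not called.

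**Figure D4:**
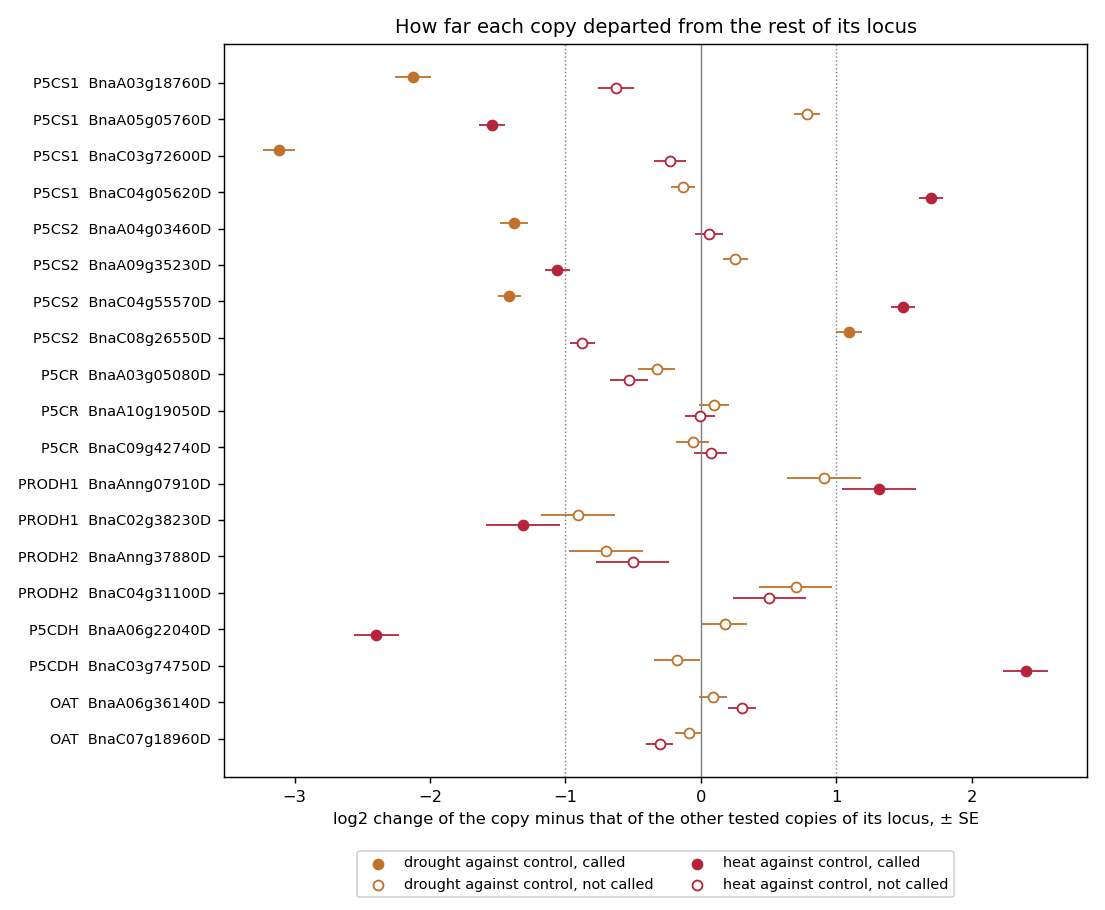
Log2 change of each copy minus that of the other tested copies of its locus (horizontal axis) in drought and in heat against control, with whiskers of ± 1 SE and filled points for called differences. The P5CDH copies lie at 2.40 and -2.40 in heat and near 0 in drought (-0.18 and 0.18).

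Heat and drought were also set against each other directly. P5CS1 was lower in heat than in drought (log2 change -2.53 ± 0.05, adjusted p = 1.99e-13), the only locus called: 1 of 7 lower, where 10.2% of loci were, and 0 of 7 higher (1 at an unadjusted p under 0.05 in limma), where 18.0% were. OAT was 0.81 ± 0.05 lower in heat on the log2 scale and was called only with TMM factors (-1.07). PRODH1 (-0.55 ± 0.11, adjusted p = 0.000419) and PRODH2 (0.10 ± 0.16, adjusted p = 0.59) were not called. Of the 19 copies, 2 were higher in heat than in drought, where 17.5% of genes were, and 6 lower, where 11.1% were. The higher ones were BnaC04g55570D of P5CS2 (1.68 ± 0.08, adjusted p = 7.51e-09) and BnaC03g74750D of P5CDH (1.27 ± 0.12, adjusted p = 2.34e-06). The lower ones were BnaA05g05760D (-3.73 ± 0.07), BnaC04g05620D (-1.52 ± 0.06) and BnaA03g18760D (-1.06 ± 0.13) of P5CS1, BnaC08g26550D (-1.62 ± 0.07) and BnaA09g35230D (-1.59 ± 0.08) of P5CS2, and BnaA06g22040D (-1.30 ± 0.11) of P5CDH. As differences between copies and the rest of their locus, 6 of 19 were higher in heat than in drought (background 10.4%) and 4 lower (background 10.3%), from 2.91 ± 0.09 for BnaC04g55570D to -2.57 ± 0.17 for BnaA06g22040D.

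Neighbouring steps of the pathway were read from lists of Arabidopsis loci, with copies summed. Of the proline and amino acid transporters, 6 of 8 loci were tested, and limma called 0 higher and 3 lower in drought (0 and 6 at an unadjusted p under 0.05), where 5.08% and 7.31% of all loci were called (27.0% and 35.5% at an unadjusted p under 0.05). PROT1, a proline transporter, averaged 36.8 ± 3.07 FPKM in drought leaves and 104 ± 2.89 FPKM in control leaves (log2 change -1.48 ± 0.06, adjusted p = 2.3e-10). AAP1, an amino acid permease, averaged 115 ± 8.53 FPKM in drought leaves and 315 ± 4.09 FPKM in control leaves (-1.45 ± 0.05), and PROT2 averaged 5.81 ± 0.112 FPKM in drought leaves and 14.9 ± 0.912 FPKM in control leaves (-1.22 ± 0.08). In heat PROT1 (48.1 ± 0.801 FPKM, -1.10 ± 0.06) and AAP1 (110.3 ± 4.69 FPKM, -1.51 ± 0.05) were called lower, 2 of 6 where 10.4% of all loci were. Not all transporters were low in heat: LHT1, an amino acid transporter, averaged 16.1 ± 0.890 FPKM in heat leaves and 8.40 ± 0.730 FPKM in control leaves (0.87 ± 0.11, not called), and AAP6 averaged 98.6 ± 3.03 FPKM in heat leaves and 99.0 ± 1.93 FPKM in control leaves (-0.01 ± 0.05). The median of the tested transporters was -0.97 in drought, beside -0.05 over all loci, and -0.57 in heat, beside 0.19.

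Glutamate, the substrate of P5CS, is supplied by glutamine synthetase and glutamate synthase. The list read here also held glutamate dehydrogenases. Of its 10 tested loci, 0 were higher and 1 lower in drought, where 5.08% and 7.31% of all loci were called. At an unadjusted p under 0.05 in limma, 2 were higher and 8 lower in drought, where 27.0% and 35.5% of all loci were. In heat 1 was higher and 3 lower (4 and 6 at an unadjusted p under 0.05), where 14.5% and 10.4% of all loci were called (47.5% and 30.4% at an unadjusted p under 0.05). GLN1-2, a cytosolic glutamine synthetase, averaged 206 ± 8.79 FPKM in drought leaves and 435 ± 12.5 FPKM in control leaves (-1.08 ± 0.04). In heat GLN1-2 averaged 116 ± 2.24 FPKM (-1.89 ± 0.04), GLN1-1 averaged 105 ± 4.02 FPKM against 315 ± 0.457 FPKM in control leaves (-1.58 ± 0.04), and the plastid form GLN2 averaged 607 ± 13.4 FPKM against 1289 ± 12.5 FPKM in control leaves (-1.09 ± 0.03). GLN1-3, another cytosolic form, averaged 175 ± 5.28 FPKM in heat leaves and 89.9 ± 1.27 FPKM in control leaves, and its change of 0.96 ± 0.05 (adjusted p = 2.97e-09) was just below the threshold. GLT1, the NADH-dependent glutamate synthase, was higher in heat, with 213 ± 4.56 FPKM in heat leaves and 79.5 ± 2.60 FPKM in control leaves (1.41 ± 0.05, adjusted p = 2.04e-11). The list's medians were -0.45 in drought, beside -0.05 over all loci, and -0.65 in heat, beside 0.19.

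On the ornithine side, BAC2, a mitochondrial carrier of basic amino acids, was higher in drought, with 10.2 ± 1.16 FPKM in drought leaves and 3.65 ± 0.368 FPKM in control leaves (1.27 ± 0.11, adjusted p = 4.31e-07). It was the only call in drought among the 3 tested loci of arginine breakdown, where 5.08% of all loci were called higher. At an unadjusted p under 0.05 in limma, 2 of the 3 were higher and 1 lower in drought (27.0% and 35.5% of all loci). In heat 0 of the 3 were called, where 14.5% of all loci were called higher and 10.4% lower. At an unadjusted p under 0.05 in limma, 2 were higher and 0 lower in heat, where 47.5% and 30.4% of all loci were. The medians of these 3 loci were 0.50 in drought and 0.87 in heat, beside -0.05 and 0.19 over all loci. Arginase 1 (ARGAH1), which releases ornithine from arginine, averaged 38.6 ± 2.14 FPKM in drought leaves and 27.0 ± 1.54 FPKM in control leaves (0.50 ± 0.07, not called). Of the 8 loci of ornithine and arginine synthesis, 1 was called lower in drought and 1 higher in heat, shares of calls near those over all loci (7.31% and 14.5%). At an unadjusted p under 0.05 in limma, 1 was higher and 5 lower in drought (27.0% and 35.5% of all loci). At that threshold 7 were higher and 0 lower in heat (47.5% and 30.4% of all loci). ASSY, argininosuccinate synthase, averaged 12.6 ± 0.184 FPKM in drought leaves and 26.6 ± 1.70 FPKM in control leaves (-1.02 ± 0.07). OTC, ornithine transcarbamylase, which draws ornithine towards arginine, averaged 169 ± 5.49 FPKM in heat leaves and 57.4 ± 1.28 FPKM in control leaves (1.54 ± 0.04, adjusted p = 6.17e-12). The medians of this list were -0.31 in drought and 0.69 in heat, beside -0.05 and 0.19 over all loci, and 4 of its 8 loci were higher in heat than in drought, where 18.0% of all loci were.

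The transcription factors listed are known in Arabidopsis to act on PRODH or P5CS genes, most of them bZIP factors. Of 10 tested, limma called 0 higher and 1 lower in drought, where 5.08% and 7.31% of all loci were called. At an unadjusted p under 0.05, 4 were higher and 4 lower in drought (27.0% and 35.5% of all loci). In heat 0 were called either way, where 14.5% of all loci were called higher and 10.4% lower. At an unadjusted p under 0.05, 2 were higher and 5 lower in heat (47.5% and 30.4% of all loci). BZIP44 averaged 129.6 ± 5.76 FPKM in drought leaves and 298 ± 4.93 FPKM in control leaves (-1.20 ± 0.04, adjusted p = 5.11e-11). The medians were -0.02 in drought, beside -0.05 over all loci, and -0.13 in heat, beside 0.19. The share of calls was near that over all loci in drought.

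**Figure D5:**
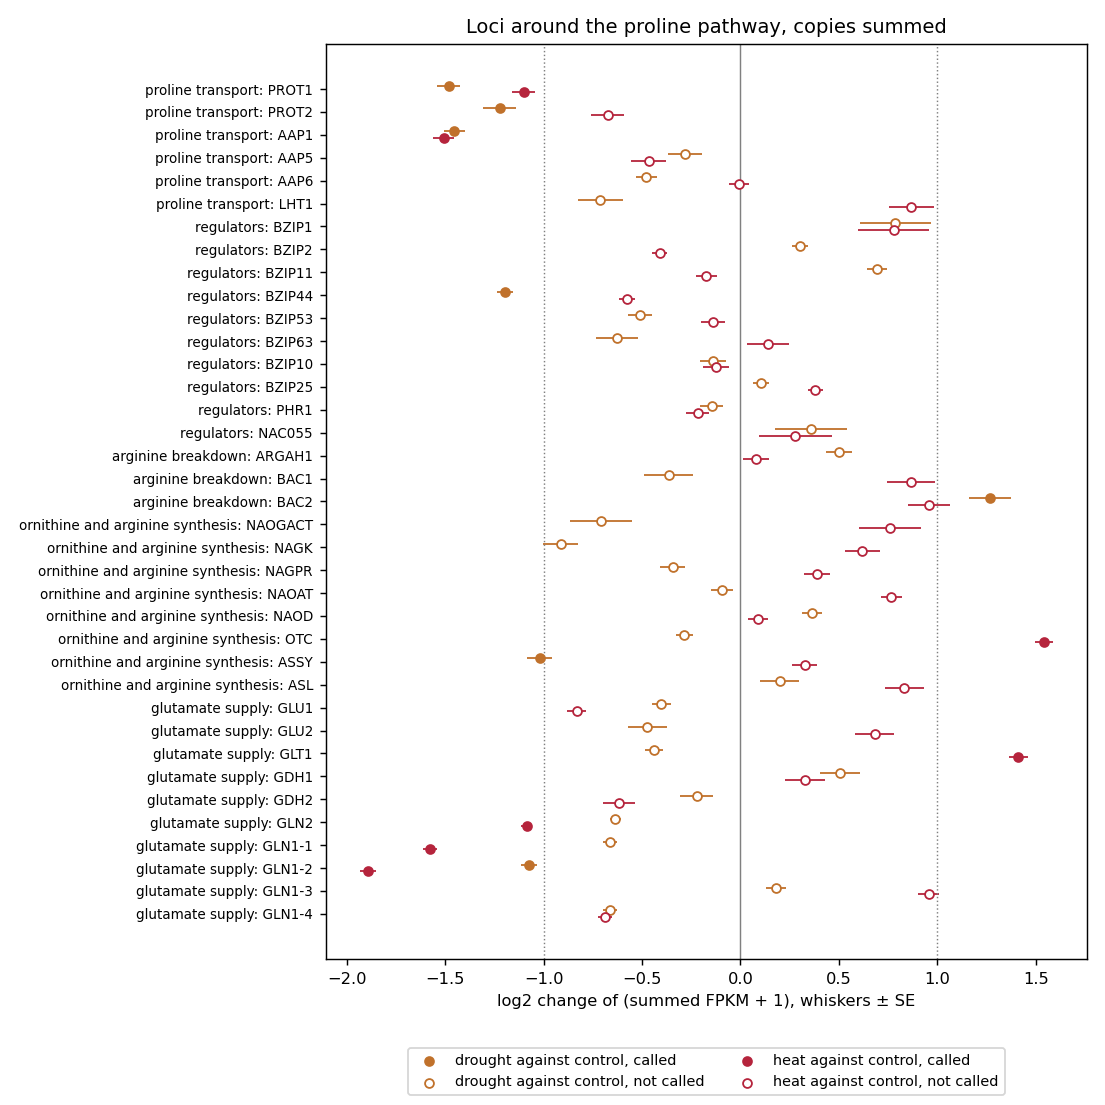
Log2 change of (summed FPKM + 1) against control (horizontal axis) in drought and in heat for each tested locus of the lists around the pathway, with whiskers of ± 1 SE, filled points for called loci and dotted lines at a change of 1 in size. PROT1 and AAP1 lie below -1 in both treatments, and OTC (1.54) and GLT1 (1.41) stand highest in heat.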

How the data were processed

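Reads were aligned with HISAT2, per the submitters' processing notes. Not given in the sources used here: its version, the counter, the genome build and the annotation. No label names the deposited unit. The values deposited by the authors behave as FPKM: after multiplying by coding length (protein length plus 1, times 3), at least 99.4% of genes above 0 in each library gave whole reads within 0.01, and 88024 genes (99.6%) did so in all 9 libraries. RPKM would describe the values equally well, so "reads" stands for either. The deposited percent identity to the Arabidopsis match was used as given, and so were the deposited score columns of alignment coverage, which only describe rows. Columns were matched to Brassica napus libraries by sample title, since the file holds Brassica napus gene models and carries the code of those samples.

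FPKM were taken to log2 after adding 1, with no other scaling. With limma 3.58.1 in R 4.3.3, group means over all 9 libraries were fitted (trend, robust) to genes that reached 1 FPKM in 3 or more libraries (44260), on rows summed by Arabidopsis locus (16186 loci) and on each copy minus the other tested copies of its locus (39930). P-values were adjusted by Benjamini and Hochberg over all features of a fit. Alternatives were TMM factors (trims of 30% and 5%), quantile normalization, no filter or a stricter one of 5 FPKM, a pseudocount of 0.1, neither trend nor robust moderation, the replicate block, only the groups compared, no fold threshold, voom on recovered reads, rows of at least 80% identity, and leaving out each library. Each tested copy of the 7 loci is named, and other rows are given by counts and range; of each list up to 3 called loci per treatment, with 5 FPKM or more, are named, beside a few named after their values were seen (ARGAH1, LHT1, AAP6, GLN1-3). Members and lists were chosen with earlier results of these data known. The scripts were tested on simulated data. Python 3.11.15, NumPy 2.4.6, pandas 2.3.3, data.table (version 1.17.8) and Matplotlib 3.10.9 were also used. No genome was used here, so no sequences or coordinates are given.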

Additional observations from a re-analysis of the deposited data

How the results depend on the processing

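Over 135 tested values and 19 settings other than dropping the fold threshold, 2145 values were obtained: 2085 kept their direction and side of the threshold, 6 lost a call, 23 gained one and 31 changed sign, none of the last being called either way. The losses were PRODH1 in drought (with TMM factors, quantile normalization, and without drought replicate 2, so that the loci called lower numbered 1 under each), BnaC04g05620D and BnaC04g55570D in heat (with TMM factors, leaving 1 copy called higher), and BnaA09g35230D against its locus. With TMM factors 2 loci were lower in heat than in drought. Copies departing upward in drought numbered 2 with a pseudocount of 0.1, and 1 to 2 over the left-out libraries; loci called lower in drought numbered 1 to 2. Without drought replicate 3 the PRODH1 copies differed by 1.29 in drought, against 0.91 with it. With no fold threshold, copies numbered 10 higher and 6 lower in drought (19.6% and 26.5% of all genes) and 5 higher and 9 lower in heat (40.1% and 27.6% of all genes), and loci 5 higher in drought, 4 higher in heat, and 1 higher and 4 lower in heat against drought (25.3%, 46.7%, 49.1% and 28.8% of all loci). The cause was not tested.

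With TMM factors the values that changed sign were, in heat against control, the loci P5CS2 (-0.10) and P5CR (-0.026) and the copies BnaC07g18960D (-0.10), BnaA10g19050D (-0.0032) and BnaA04g03460D (-0.039), and in heat against drought the loci P5CDH (-0.054) and PRODH2 (-0.042). With quantile normalization they were BnaA03g05080D in drought (0.069) and, in heat against drought, PRODH2 (-0.21), BnaAnng37880D (-0.10), BnaC03g72600D (-0.030) and BnaC09g42740D (0.014). With a pseudocount of 0.1 the PRODH2 copies BnaAnng37880D and BnaC04g31100D stood at 0.15 and -0.15 against each other in heat. Over the left-out libraries, BnaA03g05080D in drought ran from -0.14 to 0.042 and BnaC03g72600D in heat from -0.10 to 0.086. In heat against drought PRODH2 ran from -0.030 to 0.26, BnaAnng37880D from -0.050 to 0.37 and BnaC04g31100D from -0.17 to 0.043. Against their other copies, BnaA04g03460D (-0.022 to 0.12), BnaA10g19050D (-0.11 to 0.069) and BnaC09g42740D (-0.014 to 0.18) changed sign in heat, and BnaAnng37880D (-0.073 to 0.44) and BnaC04g31100D (-0.44 to 0.073) in heat against drought.

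Low copies moved most: BnaC02g38230D in heat stood at -4.53 with a pseudocount of 0.1 and -5.12 with voom, BnaC02g38230D in drought at -2.78 and -2.90, and BnaC04g31100D in drought at -2.88 and -3.11, while BnaA03g18760D in heat against drought stood at -1.63 with voom; a copy that only the 3 control libraries carry past the filter had no value without one of them. Over all genes, the lower calls in drought were 3039, against 4813 with a pseudocount of 0.1 and 4850 with voom; higher calls in heat against drought were 7756, and 5081 with a filter of 5 FPKM. With rows of at least 80% identity, loci called higher were 547 in drought (822 with all rows) and 1522 in heat (2340). The share of calls that were higher was 56.2% in heat against control (45.0% with TMM factors, 48.7% with quantile normalization), and 61.3% in heat against drought (45.6% and 49.5%). Same-numbered libraries did not deviate together (r from -0.02 to 0.03, and -0.03 to 0.03 for other pairs), so numbers do not pair libraries; with the replicate block 4 copies were higher and 3 lower in drought, and it changed no call described here.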

Other observations

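The ratio of the summed P5CS loci to the summed PRODH loci put the opposite ends of the pathway in 1 value, a description made from loci already given. It was 47.2, 54.4 and 42.7 in drought libraries, 25.4, 21.1 and 21.5 in heat libraries, and 4.37, 4.18 and 4.63 in control libraries. Drought and heat libraries were both far above the control libraries and did not overlap each other. In drought leaves the P5CS sum was 358 ± 7.34 FPKM and the PRODH sum 7.51 ± 0.965 FPKM, in heat leaves 119 ± 4.06 and 5.28 ± 0.349 FPKM, and in control leaves 109 ± 2.51 and 24.8 ± 1.45 FPKM.

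Among 4825 tested loci with at least 5 FPKM in the highest group and an SD of at least 0.5 on the log2 scale, those most like P5CS1 over the 9 libraries were AT1G54050, an HSP20-like chaperone, AT3G57020, HB-7 (AT2G46680), a homeobox gene known in Arabidopsis to respond to water deficit and abscisic acid, and SMP1 (AT1G65660), each with Pearson's r of 0.999. HB-7 averaged 91.9 FPKM in drought, 18.8 FPKM in heat and 16.0 FPKM in control leaves. Those most like PRODH1 were AT4G39190 (r = 0.995), CCR3 (AT3G55950, 0.994), ATCSLA09 (AT5G03760, 0.993) and JMT (AT1G19640, 0.993), which encodes jasmonic acid carboxyl methyltransferase. JMT averaged 3.17 FPKM in drought, 0.381 FPKM in heat and 34.3 FPKM in control leaves. With 3 groups, such values mainly show the same order of group means, and no p is given.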
